A study of Mus musculus with 12 samples.

Results

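The expression of 65 genes of the Wnt pathway, out of 32288 genes and transgenes in the count table, was followed in sorted metaphyseal osteoblasts of the mouse. The genes were chosen by symbol and fall into 19 Wnt ligands, 9 genes of the R-spondin axis (R-spondins, their LGR receptors and the ligases *Znrf3* and *Rnf43*), 15 receptors, 13 secreted and surface inhibitors, 5 intracellular transducers and 4 TCF/LEF transcription factors. Wnt ligands are secreted lipid-modified proteins that bind Frizzled receptors together with the co-receptors LRP5 or LRP6. In the canonical branch this stops the AXIN-containing destruction complex from degrading β-catenin, which then joins TCF/LEF factors on target genes, among them the feedback inhibitors *Axin2*, *Nkd1*, *Notum* and *Znrf3*. In bone the pathway drives osteoblast formation, and secreted inhibitors of the DKK, SFRP and WIF families keep it in check.

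RNA was sequenced from mGFP+ cells sorted from the metaphysis, the part of the long bone below the growth plate. All groups carried *Osx-CreERT2*, a tamoxifen-activated Cre recombinase placed at the osteoblast gene *Osx*, and the *mTmG* reporter, which switches from tdTomato to membrane GFP in cells where Cre has acted. Juvenile (3 weeks, 4 libraries) and adult (8 weeks, 4 libraries) mice carried nothing else. Each of their libraries pooled 2 male mice, taken 2 days after tamoxifen on 3 consecutive days, with the diaphysis cut away about 2 mm below the growth plate. The *c-Myc* group (2 libraries) also carried *LSL-tTA* and *Col1a1::TetO–c-Myc*, a Tet-OFF system that expresses *c-Myc* after recombination once doxycycline or tetracycline is withdrawn, and the *c-Myc* + *R172H* group (2 libraries) added *Trp53-LSL-R172H*, a conditional mutant allele of the gene encoding p53. These mice received tamoxifen for 2 days at 3 weeks, were dissected 7 days later, when they are called 5-week-old, and were trimmed at about 5 mm. Age at dissection, drug treatment, trimming and interval after tamoxifen therefore cannot be told apart from *c-Myc*. The methods give both sexes for the induced mice in one place and males for all RNA sequencing in another. *Xist*, an RNA made from the inactive X chromosome of females, was at 233 and 211 CPM in replicate 2 of the *c-Myc* and of the *c-Myc* + *R172H* group and at most at 1.24 CPM in the other 10 libraries. In bulk RNA, fewer cells of a type and less RNA per cell cannot be told apart either.

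Total counts ranged from 9066154 to 15684412 per library. *Col1a1*, *Col1a2* and *Gm26917* took 61.1 ± 3.65% of the counts in juvenile libraries (SD, n = 4) and 36.4 ± 1.68% in *c-Myc* + *R172H* libraries (SD, n = 2). Within this share the genes moved in opposite directions. *Gm26917* took 7.19 to 8.46% in juvenile, 28.2 and 29.4% in *c-Myc* and 26.5 and 28.7% in *c-Myc* + *R172H* libraries. *Col1a1* took 33.4 to 39.1% in juvenile, 9.14 and 11.3% in *c-Myc* and 5.61 and 5.83% in *c-Myc* + *R172H* libraries. *Myc* itself was at 45.8 CPM (the count relative to the library total, scaled by TMM, a normalization that assumes most genes unchanged) on average in juvenile libraries, 641 CPM with *c-Myc* and 693 CPM with *c-Myc* + *R172H*, as labelled. The 10 osteoblast markers summed to 595797 to 873327 CPM in juvenile, 363463 to 648769 in adult, 104052 to 137415 in *c-Myc* and 58908 to 60821 in *c-Myc* + *R172H* libraries. Most of this sum came from *Col1a1* and *Col1a2*. *Sp7* was at 227 to 245 CPM in juvenile and at 122 and 152 CPM in *c-Myc* libraries. *Runx2* was at 207 to 249 CPM against 137 and 146 CPM, and 8 of the 10 markers were called lower with *c-Myc*, as given below. The 17 chondrocyte markers, cartilage genes of the neighbouring growth plate, summed to 18811 to 36976 CPM in juvenile, 44911 to 142787 in adult, 1889 to 2128 in *c-Myc* and 881 to 1049 in *c-Myc* + *R172H* libraries. None of these 17 markers was at 0 in all libraries of a group. Their part in the results below was not tested. Haematopoietic, endothelial and muscle marker sums stayed under 10 CPM in every library.

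Of the 65 genes, 55 exceeded 3 counts in at least 1 library. *Dkk4*, *Wnt2*, *Wnt3*, *Wnt3a*, *Wnt8a*, *Wnt8b* and *Wnt9b* had no count in any library, and *Rspo1*, *Sfrp5* and *Wnt7a* never exceeded 3 counts. Together with *Dkk2*, *Fzd10*, *Lgr5*, *Wnt1*, *Wnt16*, *Wnt6* and *Wnt9a* they make up the 17 genes with too few counts for any test. On a scale of CPM per kb of exon, which allows levels of different genes to be compared, the most abundant members in juvenile libraries were *Ctnnb1* (168), which encodes β-catenin, *Wif1* (79.5), a secreted inhibitor that binds Wnt proteins, *Tcf7* (40.7), which encodes the transcription factor TCF1, *Lrp4* (39.3), a receptor that anchors the osteocyte inhibitor sclerostin, *Notum* (23.2), a secreted enzyme that strips the lipid from Wnt proteins, and *Lrp5* (22.2). The most abundant ligand was *Wnt4* at 12.2, and the most abundant gene of the R-spondin axis was the receptor *Lgr4* at 12.4.

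The 19 ligands summed to 31.2 ± 2.64 CPM per kb in juvenile (SD, n = 4), 42.7 ± 4.47 in adult (SD, n = 4), 19.6 ± 0.187 in *c-Myc* (SD, n = 2) and 19.6 ± 0.00508 in *c-Myc* + *R172H* libraries (SD, n = 2). Their make-up within a library does not depend on scaling between libraries, and it differed between the controls and the induced groups. *Wnt4* held 39.0 ± 5.65% of the sum in juvenile and 38.0 ± 10.3% in adult libraries (SD, n = 4 each), but 5.07 ± 0.278% with *c-Myc* and 3.33 ± 1.09% with *c-Myc* + *R172H* (SD, n = 2 each). *Wnt5b*, which acts mostly outside the β-catenin branch and is known from cartilage, went from 31.9 ± 4.62% in juvenile libraries to 10.7 ± 0.603% with *c-Myc*. In the other direction *Wnt10b*, a ligand that promotes bone formation, held 5.56 ± 1.29% in juvenile libraries and 37.1 ± 0.147% with *c-Myc*, and 47.1 ± 3.59% with *c-Myc* + *R172H*. *Wnt10a*, its closest relative, held 18.9 ± 0.404% and 15.0 ± 2.89% in the induced groups and had no count in any control library. *Wnt7b* rounded off this set with 1.64 ± 0.696% in juvenile libraries against 10.3 ± 0.541% with *c-Myc*. The share of *Wnt5a*, a mainly noncanonical ligand, was 14.2 ± 1.90% in juvenile and 13.9 ± 0.0649% in *c-Myc* libraries.

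**Figure D1:**
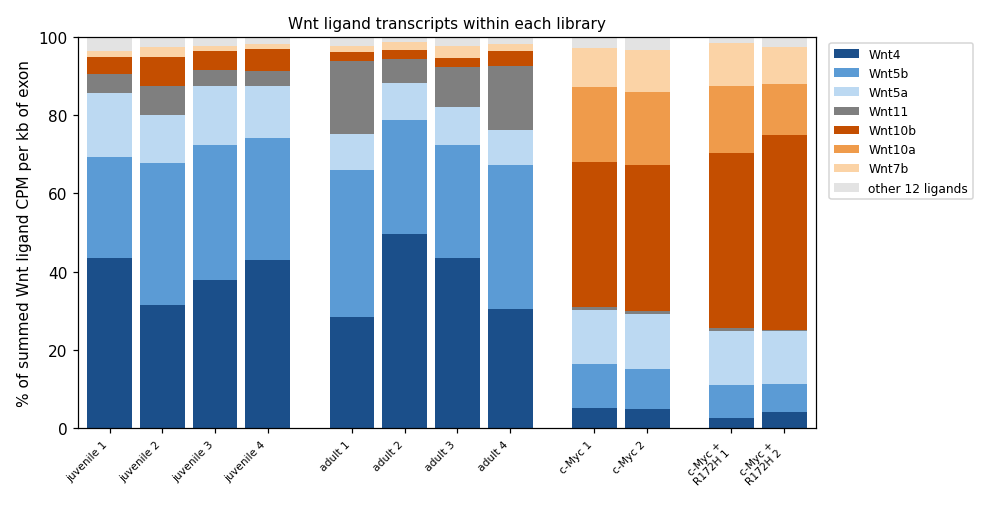
Each bar is 1 library, and its segments give the percent of the summed CPM per kb of the 19 Wnt ligands held by each of 7 ligands and by the other 12 together. Blue segments (*Wnt4*, *Wnt5b*, *Wnt5a*) fill most of the 8 control bars, whereas orange segments (*Wnt10b*, *Wnt10a*, *Wnt7b*) fill most of the 4 induced bars.

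Juvenile and adult osteoblasts were compared to ask how the cells differ while bone growth is active. Of 46 members in the quasi-likelihood F test of edgeR, 7 passed an adjusted p of 0.05 (2 higher and 5 lower in juvenile libraries), compared with a background of 5.12% of the 11345 genes tested (1.89% higher and 3.23% lower). The median log2 fold change, juvenile over adult, was 0.16 over the members and 0.00 over all genes. The genes lower in juvenile libraries were the ligand *Wnt11*, the R-spondins *Rspo3* and *Rspo4*, which potentiate Wnt signals, the receptor *Fzd9* and the cytoplasmic inhibitor *Nkd1*. Those higher were *Tcf7* and *Lgr4*. Of the 9 inhibitors tested with edgeR, 0 passed (1, *Notum*, at an unadjusted p below 0.05), and DESeq2 called 0 as well.

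*Wnt11*, a noncanonical ligand, was at 5.75, 8.97, 5.28 and 5.71 CPM in juvenile replicates 1 to 4 and at 32.7, 9.82, 20.6 and 28.5 CPM in adult replicates 1 to 4. The groups did not overlap, although adult replicate 2 lay close to the juvenile libraries. The log2 fold change was -1.83 (SE 0.32, adjusted p = 0.00449), and it passed in all 17 alternative fits. *Rspo4* was at 1.10, 3.40, 2.09 and 0.993 CPM in juvenile and 48.5, 12.3, 7.76 and 12.04 CPM in adult libraries, so the groups did not overlap and adult replicate 1 stood far above the rest. On the log2 scale it differed by -3.42 (SE 0.71, adjusted p = 0.0324), and without adult replicate 1 it was -2.50. *Rspo4* no longer passed when any of the 4 juvenile libraries was left out (adjusted p from 0.0584 without juvenile replicate 2 to 0.105 without juvenile replicate 1).

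*Rspo3* was at 2.65, 3.92, 5.84 and 6.08 CPM in juvenile and 11.7, 11.1, 6.21 and 12.1 CPM in adult libraries, and the lowest adult library was just above the highest juvenile library (log2 fold change -1.18, SE 0.33, adjusted p = 0.0475). The call was lost when any library except adult replicate 3 was left out (adjusted p 0.0550 to 0.131). *Nkd1*, which dampens signalling at Dishevelled, was at 3.83, 1.65, 2.36 and 2.36 CPM in juvenile and 12.1, 4.29, 5.69 and 8.20 CPM in adult libraries without overlap (log2 fold change -1.57, SE 0.40, adjusted p = 0.0324). It did not pass without juvenile replicate 2, 3 or 4 or adult replicate 1 or 4 (adjusted p 0.0653 to 0.157). *Fzd9* was at 9.58, 10.0, 15.7 and 9.44 CPM in juvenile and 31.8, 13.5, 25.3 and 21.3 CPM in adult libraries (log2 fold change -1.05, SE 0.25, adjusted p = 0.0241). Its groups overlapped, since juvenile replicate 3 exceeded adult replicate 2, and the call was lost without juvenile replicate 1, 2 or 4 or adult replicate 1, 3 or 4 (adjusted p 0.0562 to 0.0921).

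*Tcf7* was at 118, 113, 86.9 and 109 CPM in juvenile and 32.7, 69.8, 66.6 and 49.7 CPM in adult libraries, with every juvenile library above every adult library (log2 fold change 0.96, SE 0.20, adjusted p = 0.0125). It missed the threshold only without adult replicate 4, at an adjusted p of 0.0558. *Lgr4*, the R-spondin receptor, was at 76.6, 82.2, 67.1 and 66.4 CPM in juvenile and 42.3, 55.5, 46.2 and 51.8 CPM in adult libraries, again without overlap (log2 fold change 0.57, SE 0.13, adjusted p = 0.0164). It missed the threshold without juvenile replicate 1 or 2 or adult replicate 1 (adjusted p 0.0513 to 0.0679). *Lef1*, another TCF/LEF factor, was at 9.49 to 14.2 CPM in juvenile and 16.2 to 22.7 CPM in adult libraries without overlap, but its log2 fold change of -0.66 did not pass (adjusted p = 0.0695). *Axin2*, the most widely used target of the canonical branch, was at 12.2 to 19.9 CPM in juvenile and 7.99 to 11.8 CPM in adult libraries (log2 fold change 0.59, SE 0.23, adjusted p = 0.152). *Lrp5*, *Lrp6*, *Lrp4* and *Ctnnb1* did not pass either (adjusted p 0.0814, 0.749, 0.965 and 0.261), nor did *Dkk1*, *Wif1* and *Sfrp4* (0.573, 0.621 and 0.681).

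The summed chondrocyte markers were highest in adult replicate 1 (142787 CPM), followed by replicates 4 (88315), 3 (67526) and 2 (44911). Among the adult libraries *Wnt11* and *Nkd1* had the same order, and *Tcf7* had the opposite one. *Rspo4*, *Rspo3* and *Fzd9* did not follow that order. *Lgr4* did not follow it in either direction. Among the juvenile libraries the marker sum fell in the order of replicates 3, 2, 1 and 4 (36976, 35404, 28757 and 18811 CPM). *Fzd9* had that same order, *Tcf7* and *Wnt11* were lowest in replicate 3, and *Rspo4*, *Rspo3*, *Nkd1* and *Lgr4* followed the order in neither direction. The sum rests largely on *Col2a1* (16447, 19292, 19568 and 7036 CPM in juvenile replicates 1 to 4) and *Col11a2* (6922, 8322, 11349 and 9754 CPM). Not every marker had the order of the sum, and *Acan*, for example, was highest in replicate 2 (1239, 1813, 1117 and 379 CPM). Other lists differed too, with 2 of 17 chondrocyte markers lower in juvenile libraries (median log2 fold change -1.89), 2 of 10 osteoblast and 2 of 5 osteocyte markers higher, and 1 higher and 2 lower of 5 periosteal and tendon markers. The part of these cell types in the age differences was not tested. Of 63 other pathway genes tested from a list of 75, 3.17% passed, against the background of 5.12%. *Gpc3*, a glypican that binds Wnt proteins, was higher in juvenile libraries (log2 fold change 1.89, SE 0.42, adjusted p = 0.0157) and *Tpbg*, a membrane inhibitor of Wnt signalling, was lower (-0.77, SE 0.18, adjusted p = 0.0228).

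**Figure D2:**
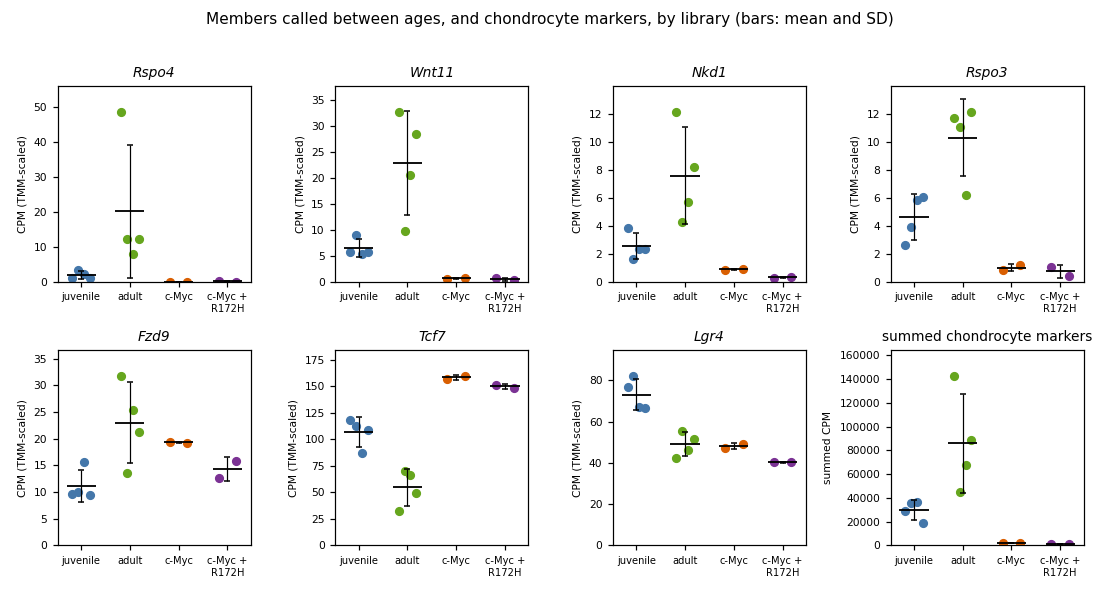
Points are libraries in CPM (y axis, linear from 0) by group, lines are means and bars SD, for the 7 members that passed between juvenile and adult libraries, with the summed CPM of 17 chondrocyte markers in the last panel. Adult libraries spread widely for *Rspo4* (7.76 to 48.5 CPM) and for the chondrocyte markers (44911 to 142787), and *Tcf7* and *Lgr4* are higher in juvenile libraries.

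*c-Myc*-induced osteoblasts were compared with juvenile osteoblasts to ask what the oncogene changes. Of 48 members tested, 29 passed an adjusted p of 0.05 with a log2 fold change of 1 or more in size, of which 6 were higher and 23 lower. The background was 34.4% of 12588 genes (18.4% higher and 16.0% lower). The median log2 fold change was -0.95 over the members and 0.04 over all genes. *Wnt10a* and *Rspo4* had no count in a group. Placing them at their bounds cannot move the median of the members, since each stays on its side of it. When library totals replaced TMM factors, the median of all genes shifted to 0.87, and 12 members were then higher and 13 lower. With high *Xist* as a covariate, 4 were higher and 18 lower, and *Fzd4*, *Fzd6*, *Rspo3*, *Wnt2b*, *Fzd3*, *Ror1*, *Dkk1* and *Nkd1* did not pass (adjusted p 0.0520 to 0.138), whereas *Frzb* did (-1.08, adjusted p = 0.0225). The background above belongs to the TMM fit without a covariate. The shares over all genes in the other fits are not given, so their member counts have no background. The 6 higher were the ligands *Wnt10a*, *Wnt10b* and *Wnt7b*, the receptors *Fzd4* and *Fzd6*, and the secreted inhibitor *Sfrp2*. The 23 lower included 7 of the 10 inhibitors tested, 4 ligands, 2 R-spondins, 5 receptors, 3 intracellular transducers and 2 TCF/LEF factors.

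**Figure D3:**
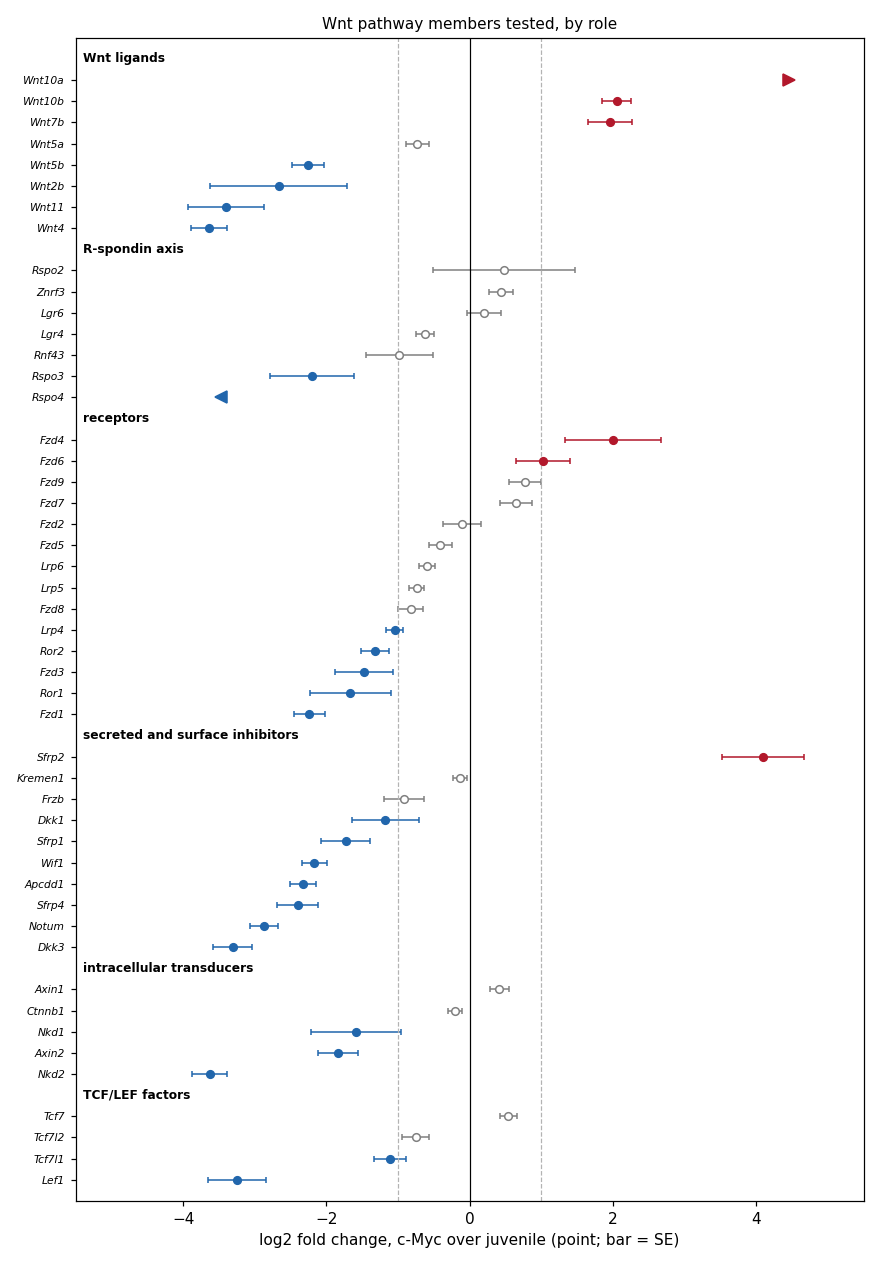
Log2 fold change of *c-Myc* over juvenile libraries (x axis) for the 48 members tested, grouped by role, with SE as bars. Filled points passed both thresholds (red higher, blue lower), open points did not, dashed lines mark the fold threshold on either side, and triangles mark *Wnt10a* and *Rspo4* at the bound set by 3 counts (at least 21.9-fold higher and at least 11.1-fold lower).

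Promoter windows are shown for members that were higher or lower with *c-Myc*, to set the sequence before their start sites beside the expression values. RefSeq windows of 300 bases (250 before the start and 50 after, GRCm38.p6) were matched by symbol for 42 of the 65 members. They were searched for CACGTG, the palindromic E-box that MYC and other factors can bind, and for CTTTGAA or CTTTGAT on either strand, the core of TCF/LEF sites. CACGTG was in 3 of the 15 windowed genes that were lower (*Rspo4*, *Wif1* and *Lef1*) and in 0 of the 3 that were higher, and the TCF/LEF words were in 3 of 15 (*Wnt11*, *Dkk1* and *Wnt5b*) and 0 of 3. Among all 42 members with a window, 5 held CACGTG (11.9%) and 3 a TCF/LEF word (7.14%). CACGTG was also in *Fzd9*, which did not pass both thresholds, and in *Wnt9a*, which was not tested. Over all 27025 genes with a window, 8.09% held CACGTG and 9.88% a TCF/LEF word. The 250 bases before the start follow, 5′ to 3′ on the strand of the gene, with matched words in capitals. The windows are *Wnt10b* (chr15:98778151-98778400, minus strand), *Sfrp2* (chr3:83766071-83766320, plus), *Rspo4* (chr2:151842677-151842926, plus), *Wif1* (chr10:121033754-121034003, plus), *Wnt11* (chr7:98834862-98835111, plus) and *Dkk1* (chr19:30549497-30549746, minus).
Wnt10b: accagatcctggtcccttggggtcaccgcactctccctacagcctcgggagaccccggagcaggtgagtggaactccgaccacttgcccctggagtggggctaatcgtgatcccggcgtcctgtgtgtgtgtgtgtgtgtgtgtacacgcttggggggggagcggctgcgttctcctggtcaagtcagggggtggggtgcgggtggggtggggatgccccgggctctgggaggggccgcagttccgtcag
Sfrp2: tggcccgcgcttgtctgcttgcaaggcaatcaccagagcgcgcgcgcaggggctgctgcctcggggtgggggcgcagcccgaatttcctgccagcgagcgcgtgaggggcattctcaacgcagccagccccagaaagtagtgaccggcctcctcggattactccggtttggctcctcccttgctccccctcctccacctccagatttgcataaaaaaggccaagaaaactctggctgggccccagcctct
Rspo4: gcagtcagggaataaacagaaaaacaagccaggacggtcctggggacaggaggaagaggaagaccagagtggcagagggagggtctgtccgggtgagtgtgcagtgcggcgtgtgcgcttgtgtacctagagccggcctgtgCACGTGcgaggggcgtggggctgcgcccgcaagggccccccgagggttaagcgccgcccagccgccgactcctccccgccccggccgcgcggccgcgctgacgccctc
Wif1: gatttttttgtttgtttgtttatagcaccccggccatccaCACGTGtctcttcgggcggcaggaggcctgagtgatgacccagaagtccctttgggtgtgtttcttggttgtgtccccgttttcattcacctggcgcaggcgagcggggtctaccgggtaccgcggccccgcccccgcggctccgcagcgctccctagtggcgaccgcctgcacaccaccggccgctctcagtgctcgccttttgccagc
Wnt11: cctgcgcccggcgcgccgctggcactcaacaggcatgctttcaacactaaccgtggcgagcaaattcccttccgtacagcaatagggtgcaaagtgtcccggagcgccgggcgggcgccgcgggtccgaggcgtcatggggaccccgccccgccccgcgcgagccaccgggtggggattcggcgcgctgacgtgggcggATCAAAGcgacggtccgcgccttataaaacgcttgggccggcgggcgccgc
Dkk1: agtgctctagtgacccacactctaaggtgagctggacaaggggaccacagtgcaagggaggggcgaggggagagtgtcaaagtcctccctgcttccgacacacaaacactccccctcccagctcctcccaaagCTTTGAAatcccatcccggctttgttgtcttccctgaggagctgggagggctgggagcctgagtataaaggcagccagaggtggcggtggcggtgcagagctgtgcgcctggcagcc
The matched words lie 108 bases before the RefSeq start in *Rspo4*, 210 in *Wif1*, 51 in *Wnt11* and 117 in *Dkk1*. The annotation used for exon lengths starts *Dkk1* (minus strand) at 30549665 and *Wif1* at 121033960, both inside these windows. By that annotation the *Dkk1* word lies within the gene. A match is a description of these letters, and binding was not measured.

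Ligands changed in opposite directions. *Wnt10a*, which lies on chromosome 1 (74791516 to 74804179, mm10), had no count in the 8 control libraries, 9.22 and 9.07 CPM with *c-Myc* and 8.28 and 6.30 CPM with *c-Myc* + *R172H*. Set against 3 counts in a juvenile library it was at least 21.9-fold higher with *c-Myc* (adjusted p = 2.44e-06). Its neighbour *Wnt6*, 6193 bases away on the same strand with no gene in between, also had no count in control libraries and had 12 and 19 counts with *c-Myc* and 8 and 5 counts with *c-Myc* + *R172H*. That is at least 1.95-fold higher than 3 counts for *c-Myc*, and *Wnt6* had too few counts to be tested.

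*Wnt10b* was at 4.29, 7.32, 5.56 and 6.33 CPM in juvenile libraries and at 24.5 and 24.9 CPM with *c-Myc*. All induced libraries lay far above the controls (log2 fold change 2.05, SE 0.20, adjusted p = 2.84e-06). *Wnt1*, its neighbour 11706 bases away on the opposite strand, stayed at or under 10 counts in every library. *Wnt7b*, at 1.92, 3.82, 1.81 and 2.36 CPM in juvenile libraries, was at 9.45 and 10.3 CPM with *c-Myc* (log2 fold change 1.96, SE 0.31, adjusted p = 0.000183).

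Among the ligands that fell, *Wnt4* was at 52.9, 38.5, 51.3 and 62.1 CPM in juvenile libraries and at 4.29 and 4.02 CPM with *c-Myc* (log2 fold change -3.64, SE 0.25, adjusted p = 1.72e-07). *Wnt5b* was at 19.7, 28.1, 29.5 and 28.4 CPM against 5.75 and 5.38 CPM (log2 fold change -2.26, SE 0.22, adjusted p = 3.44e-06). For both ligands every juvenile library was above both *c-Myc* libraries. *Wnt11* fell from 5.28 to 8.97 CPM to 0.548 and 0.680 CPM (log2 fold change -3.40, SE 0.53, adjusted p = 0.000158). *Wnt2b* was lower as well (log2 fold change -2.67, SE 0.96, adjusted p = 0.0325), but juvenile replicate 1 was at 4.38 CPM and the others at 1.03 to 1.24 CPM, and it did not pass without juvenile replicate 1, either *c-Myc* library or either *c-Myc* + *R172H* library (adjusted p 0.0510 to 0.224). *Wnt5a* differed by -0.73 on the log2 scale (adjusted p = 0.00168), short of the fold threshold, and its direction turned with library totals.

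In the R-spondin axis *Rspo4* was without a count in both *c-Myc* libraries, which is at least 11.1-fold lower than in juvenile libraries (0.993 to 3.40 CPM, adjusted p = 0.00177). *Rspo3* was at 2.65 to 6.08 CPM in juvenile libraries and at 0.822 and 1.19 CPM with *c-Myc* (log2 fold change -2.21, SE 0.59, adjusted p = 0.00685), and without *c-Myc* replicate 1 it did not pass (adjusted p = 0.0863). *Rspo2*, the other R-spondin with enough counts, did not pass (0.48, adjusted p = 0.709). *Lgr4* was at 66.4 to 82.2 CPM in juvenile libraries against 47.3 and 49.2 CPM (log2 fold change -0.62, adjusted p = 0.000812), a direction that turned with library totals (0.20). *Znrf3*, a ligase that removes Frizzled from the membrane, had a log2 fold change of 0.44 (adjusted p = 0.0417), below the fold threshold, and *Lgr6* and *Rnf43* did not pass (0.20 and -0.98, adjusted p = 0.511 and 0.0935).

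Of 14 receptors tested, 2 were higher (14.3%, background 18.4%) and 5 lower (35.7%, background 16.0%). *Fzd1* was at 42.0, 33.8, 26.3 and 35.1 CPM in juvenile libraries and at 7.12 and 7.71 CPM with *c-Myc*, with no overlap (log2 fold change -2.24, SE 0.22, adjusted p = 3.38e-06). Its share of the summed Frizzled CPM per kb was 19.6 ± 3.73% in juvenile (SD, n = 4) and 4.71 ± 0.116% in *c-Myc* libraries (SD, n = 2), whereas *Fzd7* held 14.6 ± 3.70% and 26.2 ± 0.779%. The sum of the 10 Frizzled genes was 41.8 ± 3.48 CPM per kb in juvenile and 37.6 ± 3.03 with *c-Myc*. *Fzd4* was at 0 to 2.37 CPM in juvenile libraries and 5.43 and 3.80 CPM with *c-Myc* (log2 fold change 2.00, SE 0.67, adjusted p = 0.0241), and *Fzd6* was at 1.92 to 4.47 CPM against 5.66 and 5.44 CPM (1.03, SE 0.37, adjusted p = 0.0351). *Fzd4* did not pass without either *c-Myc* library (adjusted p 0.0584 and 0.168), and *Fzd6* kept both thresholds only when juvenile replicate 4 was the library left out (otherwise log2 fold change 0.89 to 1.04, adjusted p 0.0442 to 0.177). *Fzd7* and *Fzd9* passed the adjusted p but not the fold (0.65 and 0.78, adjusted p = 0.0281 and 0.0113).

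Differences were smaller for the co-receptors. *Lrp4* was at 489, 407, 368 and 389 CPM in juvenile libraries and 191 and 215 CPM with *c-Myc* (log2 fold change -1.05, SE 0.12, adjusted p = 1.50e-05), and it was just short of the fold threshold without juvenile replicate 1 (-0.95) or *c-Myc* replicate 1 (-0.96). *Lrp5* (-0.74, adjusted p = 6.35e-05) and *Lrp6* (-0.59, adjusted p = 0.000540) did not reach the fold threshold, and both turned to higher with library totals (0.10 and 0.24). *Ror1* and *Ror2*, receptors for WNT5A, were lower (log2 fold change -1.67 and -1.33, adjusted p = 0.0255 and 0.000101), as was *Fzd3* (-1.48, adjusted p = 0.00890). *Ror1* did not pass without juvenile replicate 1, *c-Myc* replicate 1 or *c-Myc* replicate 2 (adjusted p 0.0590 to 0.162), and *Fzd3* did not pass without *c-Myc* replicate 2 (0.109).

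The inhibitors had the lowest median of the 6 role groups, -1.95 on the log2 scale over 10 tested. Of those tested, 7 were lower (70.0%, background 16.0%) and 1 higher (10.0%, background 18.4%). The summed level of the inhibitors was 151 ± 11.96 CPM per kb in juvenile libraries (SD, n = 4) and 42.8 ± 0.905 with *c-Myc* (SD, n = 2). *Wif1* was at 226, 225, 164 and 157 CPM in juvenile libraries and at 43.3 and 44.1 CPM with *c-Myc* (log2 fold change -2.17, SE 0.17, adjusted p = 5.69e-07). *Notum* was at 59.6, 52.2, 67.7 and 44.1 CPM against 7.35 and 8.22 CPM (-2.87, SE 0.20, adjusted p = 1.74e-07). Both were without overlap, and with library totals they were still lower (-1.35 and -2.04).

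*Dkk3*, a divergent member of the Dickkopf family, was at 31.4, 25.3, 44.2 and 45.6 CPM in juvenile libraries and 3.83 and 3.63 CPM with *c-Myc* (log2 fold change -3.31, SE 0.27, adjusted p = 8.01e-07). *Sfrp4*, a secreted decoy receptor that is abundant in bone, was at 51.6, 32.1, 27.1 and 52.4 CPM against 7.08 and 8.67 CPM (-2.40, SE 0.29, adjusted p = 1.80e-05). *Apcdd1*, a membrane-bound inhibitor, was at 105, 77.6, 103 and 104 CPM against 21.0 and 18.2 CPM (-2.33, SE 0.18, adjusted p = 4.66e-07). In each of these 3 genes the lowest juvenile library was above both *c-Myc* libraries. *Sfrp1* was lower too (-1.73, SE 0.35, adjusted p = 0.00105). *Dkk1*, the classical LRP5/6 antagonist, was at 5.57, 2.89, 9.73 and 4.59 CPM against 2.56 and 2.49 CPM (-1.18, SE 0.47, adjusted p = 0.0495), and it did not pass without juvenile replicate 1 or 3 or any of the 4 induced libraries (adjusted p 0.0730 to 0.200).

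*Sfrp2* went against the rest of the inhibitors. It was at 0.183, 1.24, 0 and 0.497 CPM in juvenile libraries and at 11 and 6.52 CPM with *c-Myc* (log2 fold change 4.09, SE 0.58, adjusted p = 6.87e-05). The groups did not overlap, and adult libraries were also low, at 0.259 to 1.58 CPM. *Sfrp2* has an antisense neighbour, *Gm26771*, that overlaps its exons, and the strand setting of the counting is not stated. *Frzb*, another member of the SFRP family, passed the adjusted p without the fold (-0.92, adjusted p = 0.0137), and *Kremen1*, a DKK receptor, did not pass (-0.13, adjusted p = 0.297).

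**Figure D4:**
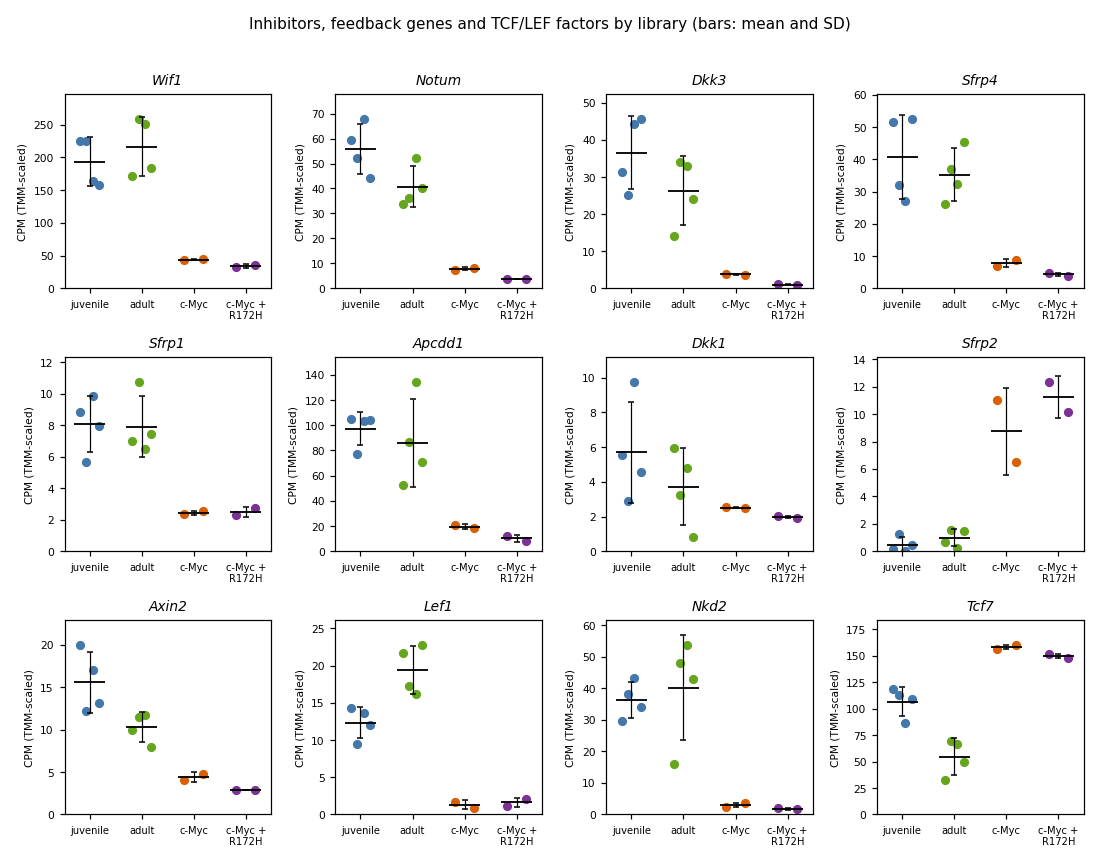
Points are libraries in CPM (y axis, linear from 0) by group, lines are means and bars SD, for 8 inhibitors and 4 intracellular or nuclear genes. *Wif1*, *Notum*, *Dkk3*, *Sfrp4*, *Apcdd1*, *Axin2*, *Lef1* and *Nkd2* are low in the 4 induced libraries, whereas *Sfrp2* (6.52 to 12.3 CPM) and *Tcf7* (148 to 160 CPM) are high there.

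Inside the cell, *Ctnnb1* was at 954, 911, 767 and 857 CPM in juvenile libraries and 804 and 733 CPM with *c-Myc*, with overlap (log2 fold change -0.21, SE 0.10, adjusted p = 0.103), and its sign turned with library totals (0.62). *Axin1*, the constitutive scaffold of the destruction complex, was at 28.1 to 38.1 CPM against 47.5 and 40.9 CPM (0.41, adjusted p = 0.0218), below the fold threshold. *Axin2*, its inducible relative, was at 19.9, 12.2, 17.0 and 13.2 CPM against 4.02 and 4.82 CPM (-1.84, SE 0.28, adjusted p = 0.000124) without overlap. *Nkd2*, a cytoplasmic inhibitor like *Nkd1*, was at 29.8, 38.3, 43.4 and 34.3 CPM against 2.46 and 3.51 CPM (-3.63, SE 0.24, adjusted p = 1.45e-07). *Nkd1* passed narrowly (-1.58, SE 0.63, adjusted p = 0.0498), and it did not pass without juvenile replicate 1 or any of the 4 induced libraries (adjusted p 0.0902 to 0.261).

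The TCF/LEF factors diverged. *Lef1*, a target as well as an effector of the pathway, was at 14.2, 9.49, 13.6 and 12.04 CPM in juvenile libraries and at 1.73 and 0.850 CPM with *c-Myc* (log2 fold change -3.25, SE 0.40, adjusted p = 2.42e-05). *Tcf7* was at 118, 113, 86.9 and 109 CPM against 157 and 160 CPM, with both *c-Myc* libraries above every juvenile library (0.54, SE 0.12, adjusted p = 0.00172), short of the fold threshold. The share of *Tcf7* in the summed CPM per kb of the 4 factors was 83.4 ± 1.71% in juvenile libraries (SD, n = 4) and 94.4 ± 0.360% with *c-Myc* (SD, n = 2), and that of *Lef1* was 2.94 ± 0.733% and 0.231 ± 0.114%. *Tcf7l1*, mostly a repressor, was lower (-1.11, SE 0.22, adjusted p = 0.000913).

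Of 66 other pathway genes tested, 6 were higher and 16 lower, and the median of all 66 was -0.21 on the log2 scale. The 22 calls are 33.3% of these genes, close to the background of 34.4%, with 9.09% higher (background 18.4%) and 24.2% lower (background 16.0%). *Porcn*, the enzyme that attaches the lipid to Wnt proteins, was at 6.70 to 16.4 CPM in juvenile libraries and 2.46 and 3.51 CPM with *c-Myc* (log2 fold change -1.93, SE 0.43, adjusted p = 0.00221), and *Wls*, which carries Wnt proteins to the surface, had a value of -0.49 (adjusted p = 0.00434), short of the fold threshold. *Sost*, which encodes sclerostin, was at most at 0.564 CPM in any library and was not tested. *Ccnd1*, a cell cycle gene often used as a target, was at 31.0 to 74.7 CPM in juvenile libraries against 134 and 151 CPM (1.48, SE 0.32, adjusted p = 0.00371), and *Tnfrsf11b*, which encodes the osteoclast inhibitor osteoprotegerin, was at 18.2 to 42.9 CPM against 5.20 and 4.25 CPM (-2.65, SE 0.35, adjusted p = 3.69e-05). Of the others, *Cpz*, a carboxypeptidase with a Frizzled-like domain, fell by 2.57 and *Pygo1*, a β-catenin cofactor, by 2.51 on the log2 scale (adjusted p = 7.06e-08 and 4.51e-06). Osteoblast markers were lower beside them (8 of 10, median log2 fold change -2.58), and chondrocyte markers were lower in 17 of 17 (median -5.70). Also lower were 4 of 5 osteocyte markers (median -1.92), 3 of 4 periosteal and tendon markers (-1.69) and 2 of 8 marrow stromal markers (-0.98). The 6 osteoclast markers summed to 129 to 151 CPM in juvenile and 18.03 to 23.5 CPM in *c-Myc* libraries. Most of this sum was *Ctsk* (125 to 147 CPM against 13.8 and 20.3 CPM). *Acp5* overlapped between the groups (3.85 to 7.37 CPM against 4.25 and 3.00 CPM). Of the 6 osteoclast markers, 2 had enough counts for a test and 1 was lower. The part of all these markers in the values of the Wnt members was not tested.

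*c-Myc* + *R172H* was compared with *c-Myc* alone to ask what mutant p53 adds. Of 48 members tested, 0 were higher and 1, *Dkk3*, was lower at an adjusted p of 0.05, against a background of 0.469% of 12588 genes (0.00794% higher and 0.461% lower). *Dkk3* was at 3.83 and 3.63 CPM with *c-Myc* and at 1.05 and 0.992 CPM with *c-Myc* + *R172H*, without overlap (log2 fold change -1.83, SE 0.35, adjusted p = 0.0450). The call was lost without juvenile replicate 1 or any of the 4 induced libraries (adjusted p 0.0805 to 0.337), and with high *Xist* as a covariate (0.0710). With the replicate number as a block, which matches *Xist* between the induced groups although the labels name no pairing, 4 were lower, namely *Dkk3*, *Notum*, *Apcdd1* and *Frzb* (adjusted p 0.000575 to 0.0312). At an unadjusted p below 0.05, 0 members were higher and 6 lower with edgeR, and DESeq2 called 0 higher and 3 lower (*Dkk3*, *Notum* and *Apcdd1*). The shares over all genes for the block, the unadjusted p and DESeq2 are not given, so these counts have no background beside them. *Notum* was at 7.35 and 8.22 CPM against 3.61 and 3.62 CPM (-1.07, SE 0.23, adjusted p = 0.0684), and *Apcdd1* was at 21.0 and 18.2 CPM against 12.5 and 8.53 CPM (-0.87, SE 0.20, adjusted p = 0.104). The inhibitors summed to 42.8 ± 0.905 CPM per kb with *c-Myc* and 33.4 ± 0.207 with *c-Myc* + *R172H* (SD, n = 2 each).

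The 3 ligands that were higher with *c-Myc* did not pass between the induced groups. *Wnt10a* was at 9.22 and 9.07 against 8.28 and 6.30 CPM (log2 fold change -0.30, SE 0.38), *Wnt10b* at 24.5 and 24.9 against 29.7 and 33.1 CPM (0.38, SE 0.22) and *Wnt7b* at 9.45 and 10.3 against 10.6 and 9.18 CPM (0.03, SE 0.34). The adjusted p was 1.00 for each, which does not show that the levels were alike. *Lef1*, *Axin2* and *Tcf7* did not pass either (0.35, -0.57 and -0.05, adjusted p = 1.00 each). Of 66 other pathway genes 1, *Cpz*, was lower (-0.86, SE 0.16, adjusted p = 0.0446). Of the 17 chondrocyte markers 0 passed (median log2 fold change -1.29, 3 positive and 14 negative), and 2 of 10 osteoblast markers were lower.

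The comparison of *c-Myc* + *R172H* with juvenile libraries shares its controls with that of *c-Myc*, so its values are given for themselves. Of 48 members tested, 6 were higher and 23 lower, with a background of 37.5% of 12588 genes (19.6% higher and 17.9% lower) and a median of -0.86 over the members and 0.08 over all genes. With library totals 12 were higher and 15 lower, and the share over all genes in that fit is not given. The 6 higher were *Wnt10a* (at least 17.5-fold against 3 counts), *Sfrp2* (12.3 and 10.2 CPM, log2 fold change 4.48, SE 0.57), *Wnt10b* (2.43, SE 0.20), *Fzd4* (2.11, SE 0.67), *Wnt7b* (1.99, SE 0.31) and *Fzd6* (1.18, SE 0.37), with adjusted p from 5.21e-07 to 0.0175. *Fzd6*, *Dkk1* and *Ror1* did not pass with high *Xist* as a covariate (adjusted p 0.0632 to 0.167). *Fzd4* and *Fzd6* each lost the call without either *c-Myc* + *R172H* library (adjusted p 0.0743 to 0.129).

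Of the 23 lower, *Dkk3* was at 1.05 and 0.992 CPM (log2 fold change -5.14, SE 0.32, adjusted p = 6.00e-08), *Nkd2* at 1.97 and 1.64 CPM (-4.32, SE 0.26), *Wnt4* at 2.10 and 3.37 CPM (-4.22, SE 0.26) and *Notum* at 3.61 and 3.62 CPM (-3.94, SE 0.21). *Rspo4* had 1 count in *c-Myc* + *R172H* replicate 1 and none in replicate 2. *Wif1* (-2.50), *Sfrp4* (-3.23), *Apcdd1* (-3.20), *Axin2* (-2.41), *Lef1* (-2.90), *Frzb* (-1.78) and *Lrp4* (-1.08) were also lower (adjusted p from 4.33e-08 to 0.000213), and so were *Wnt11*, *Wnt5b*, *Wnt2b*, *Rspo3*, *Nkd1*, *Dkk1*, *Sfrp1*, *Fzd1*, *Fzd3*, *Ror1* and *Ror2*, from -3.82 for *Wnt11* to -1.39 for *Ror2*. *Ror1* lost the call without juvenile replicate 1 or 2 or any of the 4 induced libraries (adjusted p 0.0630 to 0.272), *Wnt2b* without juvenile replicate 1 or either *c-Myc* + *R172H* library (0.0573 to 0.177), *Dkk1* without either *c-Myc* + *R172H* library (0.0962 and 0.102), *Nkd1* without *c-Myc* + *R172H* replicate 1 (0.05004) and *Lrp4*, on its fold of -0.98, without juvenile replicate 1. Of 66 other pathway genes 5 were higher and 17 lower, which is 33.3% against the background of 37.5%.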

How the data were processed

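The authors processed single-end reads with cutadapt 4.6 (adapter trimming), STAR 2.7.11a (alignment, mm10) and HTSeq 2.0.5 (counting per gene), and deposited raw counts without normalization. The strand setting of the counting is not stated in the sources used here, so genes with antisense neighbours (12 of the members) are uncertain. These members are *Axin2*, *Ctnnb1*, *Fzd5*, *Fzd6*, *Lef1*, *Notum*, *Rspo3*, *Sfrp2*, *Tcf7l1*, *Wnt11*, *Wnt5a* and *Wnt7b*. Libraries were grouped by their titles. From the deposited counts, TMM factors, CPM and tests were computed in R 4.3.3 with edgeR 4.0.16 (default expression filter, robust quasi-likelihood F test, Benjamini-Hochberg adjustment at 0.05). Juvenile and adult libraries formed one fit and both induced groups and the juvenile libraries another, and calls of an induced group against juvenile also needed a log2 fold change of 1 or more in size. The SE is approximate (the size of the fitted log2 change over the root of F). Exon lengths came from GENCODE on GRCm38 (mm10). A gene at 0 in a group was set against 3 counts in the library of that group where these give the highest CPM, which covers counting error only. Replicates differed by more than sampling noise (chi-square per degree of freedom 5.75 to 147), and p-values measure the spread between these libraries only.

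The members, roles and lists were chosen with earlier results of these data known. Values are given for every member called in a comparison, the 2 members of each role with the highest CPM per kb, and a short fixed list of pathway genes. Alternatives were RLE and upper-quartile factors, library totals, the genes without *Col1a1*, *Col1a2* and *Gm26917*, no filter, at least 10 counts in every library, DESeq2 1.42.0, all 12 libraries in a single fit, a replicate block, each library left out in turn and, chosen after seeing the data, high *Xist* (above 50 CPM) as a covariate in the induced fits. The procedure was also run on simulated counts in which a small part of the genes was raised or lowered in equal numbers. Such counts do not test how TMM factors act where many genes change, as with *c-Myc*.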

Additional observations from a re-analysis of the deposited data

Results flagged for a closer look

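In groups of 4 libraries, a library was marked where its gap to the nearest other library exceeded Dixon's 95% critical share of the range of the group. This marked 6 of 72 groups of named members, and chance marks about 1 in 20. *Rspo4* was at 48.5 CPM in adult replicate 1 and at 7.76 to 12.3 CPM in the other adult libraries. *Wnt11* was at 8.97 CPM in juvenile replicate 2 against 5.28 to 5.75 CPM, and *Fzd9* at 15.7 CPM in juvenile replicate 3 against 9.44 to 10.0 CPM. *Wnt2b* was at 4.38 CPM in juvenile replicate 1 against 1.03 to 1.24 CPM. Low libraries were marked for *Apcdd1*, at 77.6 CPM in juvenile replicate 2 against 103 to 105 CPM, and for *Wnt5b*, at 19.7 CPM in juvenile replicate 1 against 28.1 to 29.5 CPM. No cause of these was tested.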

How the results depend on the processing

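When library totals replaced TMM factors, 1 member was higher and 8 lower in juvenile over adult libraries, 12 higher and 13 lower with *c-Myc*, 12 higher and 15 lower with *c-Myc* + *R172H* over juvenile, and 0 lower with *c-Myc* + *R172H* over *c-Myc*. These totals shift the median log2 fold change of all genes by -0.24, 0.87, 1.12 and 0.21. Under them *Sfrp4* turned to -0.042 in the age comparison. *Ctnnb1* (0.62), *Kremen1* (0.70), *Lgr4* (0.20), *Lrp5* (0.10), *Lrp6* (0.24) and *Wnt5a* (0.11) turned with *c-Myc*. *Ctnnb1* (0.87), *Lgr4* (0.18), *Lrp5* (0.18), *Lrp6* (0.62) and *Tcf7l1* (0.34) turned with *c-Myc* + *R172H* over juvenile, and *Lrp4* (0.19), *Lrp5* (0.085) and *Tcf7* (0.16) over *c-Myc*. The adjusted p alone gave 11 higher and 31 lower with *c-Myc*, and 10 higher and 30 lower with *c-Myc* + *R172H* over juvenile. High *Xist* as a covariate, chosen after seeing the data, gave 4 higher and 18 lower, 5 higher and 21 lower, and 0 lower for *c-Myc* + *R172H* over *c-Myc*. At least 10 counts in every library, which tests fewer genes, gave 3 higher in each of these and 2 lower for *c-Myc* + *R172H* over *c-Myc*. No filter gave 4 higher with age and 4 lower for *c-Myc* + *R172H* over *c-Myc*, in which upper-quartile factors and all 12 libraries gave 0 lower and DESeq2 3 lower. Leaving out each library gave 1 to 3 higher and 1 to 5 lower with age, and 0 to 2 lower for *c-Myc* + *R172H* over *c-Myc*. In these fits *Lrp4* ran from -0.12 to 0.10 with age, and *Axin1* from -0.036 to 0.18, *Ctnnb1* from -0.063 to 0.082, *Lef1* from -0.14 to 0.93, *Lrp4* from -0.14 to 0.035 and *Wnt7b* from -0.098 to 0.098 for *c-Myc* + *R172H* over *c-Myc*. The shares over all genes in these alternative fits and with the adjusted p alone are not given, so the counts have no background here. Causes were not tested.

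Correlations of deviations between libraries of equal replicate number ran from -0.05 to 0.04 between juvenile and adult and were 0.14 for both pairs of the induced groups, where 2 libraries per group give a single value of either sign. The labels name no pairing, so the numbers were not taken as pairs. The replicate block gave 2 higher and 4 lower with age, 6 higher and 23 lower in both induced groups over juvenile, and 4 lower for *c-Myc* + *R172H* over *c-Myc*. The shares over all genes in the block fits are not given. Genes under 3 counts are below what this depth shows.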
